A study of Mus musculus with 6 samples.

Results

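The Notch pathway genes described here are 4 receptors (*Notch1*, *Notch2*, *Notch3* and *Notch4*), 3 ligands (*Jag1*, *Jag2* and *Dll1*) and 3 transcriptional targets (*Hes1*, *Hey1* and *Heyl*), chosen by name. They are 10 of 21755 genes annotated as protein-coding on the autosomes and chromosome X. H3K4me1, the monomethylated form of lysine 4 of histone H3, is a mark of active and poised enhancers. CUT&Tag maps such a mark by tethering a transposase to it through an antibody and sequencing the fragments it cuts out. The samples were whole whisker pads of wild-type B6/J2 mice at embryonic day 12, dissociated to single cells. The pads gave 3 samples with an antibody against H3K4me1, called replicates 1, 2 and 3 by the pad number in their titles, and 3 samples with control IgG.

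Only the H3K4me1 peak lists were analysed here, so the values stand without a background measured in the same way, and with 1 group of samples no difference between conditions could be tested. The labels do not say that the pads came from separate animals. The source field of 4 samples, replicates 2 and 3 among them, gives adult kidney where the titles give whisker pad, and the titles were followed. In a marker list of facial mesenchyme, 11 of 12 genes had a peak in the gene body or its 5 kb flanks in all 3 replicates, as did 15.5% of all genes. Of 14 adult kidney markers, 3 did (21.4%), near the share of all genes. Another 10 had none in any replicate, where the share of all genes was 71.2%. In replicates 1, 2 and 3 the kidney markers with a peak numbered 4, 4 and 3, against 24.9, 22.6 and 19.6% of all genes. Whether the source field or the titles are right was not tested. The lists held 16788, 12969 and 13998 peaks in replicates 1, 2 and 3, with median lengths of 2981, 3682 and 3352 bp.

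Notch signalling passes between touching cells. A ligand of the Jagged or Delta-like family on one cell binds a Notch receptor on its neighbour, proteases cut the receptor, and the released intracellular domain enters the nucleus and joins the DNA-binding protein RBPJ to switch on genes of the HES and HEY repressor families. In skin appendages the pathway is known for controlling cell fate in the epithelium and mesenchyme, and in vessels for the choice between arterial and venous fate and for the smooth muscle coat.

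A peak was counted for a gene in either of 2 places. Body peaks overlapped the annotated gene or the 5 kb on either side of it. Distal peaks overlapped neither, lay up to 100 kb away, and had that gene's as the nearest protein-coding start site. Positions below are in kb from the start of the principal transcript, counted in the direction of transcription, so negative positions are upstream. The strength of a peak is its percentile, the percentage of peaks in the same list with a total signal no higher than its own, where total signal is the fragment pileup summed over the peak.

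The positions at which the pileup was highest gave the sequences around which the findings turn. They are shown as short windows of GRCm38, on the plus strand of the chromosome, centred on the middle one of the highest points of the 3 replicates. Capitals mark letters of a searched motif, and windows without capitals held none of them. The first pair comes from receptor loci. They are the upstream peak of *Notch1*, shown because its highest points coincided closely in the 3 replicates, unlike those of the stronger block over the gene, and the peak in the second intron of *Notch2*, whose region had the highest mean percentile of the gene set.
Notch1 at -21.8 kb, chr2:26525547-26525747: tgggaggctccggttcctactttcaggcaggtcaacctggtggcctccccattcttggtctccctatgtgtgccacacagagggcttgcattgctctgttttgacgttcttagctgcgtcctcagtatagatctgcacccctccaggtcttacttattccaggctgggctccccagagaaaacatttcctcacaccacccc
Notch2 at 48.4 kb, chr3:98061884-98062084: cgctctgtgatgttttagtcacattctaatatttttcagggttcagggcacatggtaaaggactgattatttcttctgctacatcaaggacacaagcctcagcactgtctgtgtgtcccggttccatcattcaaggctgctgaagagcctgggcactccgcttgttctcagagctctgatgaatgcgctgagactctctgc

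The ligand *Jag1* is shown by its strongest intronic peak and by its single distal peak. Capitals mark the E-box CAGATG, a sequence bound by Twist and its partners, and the TCF/LEF sequence CTTTGAT, each read on either strand.
Jag1 at 7.98 kb, chr2:137108563-137108763: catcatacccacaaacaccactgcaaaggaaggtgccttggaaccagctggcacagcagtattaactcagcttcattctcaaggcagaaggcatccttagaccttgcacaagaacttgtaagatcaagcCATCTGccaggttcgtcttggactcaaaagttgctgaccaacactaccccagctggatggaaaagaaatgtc
Jag1 at -18.9 kb, chr2:137135492-137135692: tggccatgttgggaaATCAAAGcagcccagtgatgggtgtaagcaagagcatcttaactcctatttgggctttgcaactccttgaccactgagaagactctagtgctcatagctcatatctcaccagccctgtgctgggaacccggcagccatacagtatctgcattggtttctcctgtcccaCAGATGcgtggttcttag

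Among the targets, 3 windows come from the distal peaks of *Hes1*: the strongest, the one at which the replicates placed the highest pileup most closely together, and the only window of the gene set with the RBPJ letters GTGGGAA. In the last of these, the longer run of capitals is a pair of overlapping matches to GCCNNNGGC, bound by AP-2 factors. The final window is the strongest distal peak of *Hey1*.
Hes1 at -45.4 kb, chr16:30019808-30020008: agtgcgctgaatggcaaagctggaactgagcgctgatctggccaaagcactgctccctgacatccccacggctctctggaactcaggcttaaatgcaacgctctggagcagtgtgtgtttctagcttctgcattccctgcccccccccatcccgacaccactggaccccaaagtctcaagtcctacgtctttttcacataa
Hes1 at 30.9 kb, chr16:30096130-30096330: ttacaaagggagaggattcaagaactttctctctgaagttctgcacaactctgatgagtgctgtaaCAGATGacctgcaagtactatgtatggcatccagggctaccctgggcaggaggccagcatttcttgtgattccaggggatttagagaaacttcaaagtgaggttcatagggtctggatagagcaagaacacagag
Hes1 at 55.6 kb, chr16:30120872-30121072: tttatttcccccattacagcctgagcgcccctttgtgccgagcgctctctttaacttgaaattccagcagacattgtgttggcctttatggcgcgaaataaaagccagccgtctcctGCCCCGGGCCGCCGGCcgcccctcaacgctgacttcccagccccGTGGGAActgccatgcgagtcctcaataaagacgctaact
Hey1 at -55.8 kb, chr3:8722959-8723159: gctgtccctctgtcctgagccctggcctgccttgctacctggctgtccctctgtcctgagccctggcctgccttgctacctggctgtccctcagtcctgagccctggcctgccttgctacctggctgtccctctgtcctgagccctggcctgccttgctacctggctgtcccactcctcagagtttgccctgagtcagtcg

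H3K4me1 was found at most of the 10 genes, with long, strong blocks over the first 2 introns of *Notch1*, *Notch2* and *Jag1* and a spread of distal peaks on both sides of *Hes1*. The 10 genes together had 55, 50 and 35 peaks in the replicates, 46.7 ± 10.4 on average (SD, n = 3). Of these, 30, 24 and 18 were body peaks and 25, 26 and 17 were distal.

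**Figure D1:**
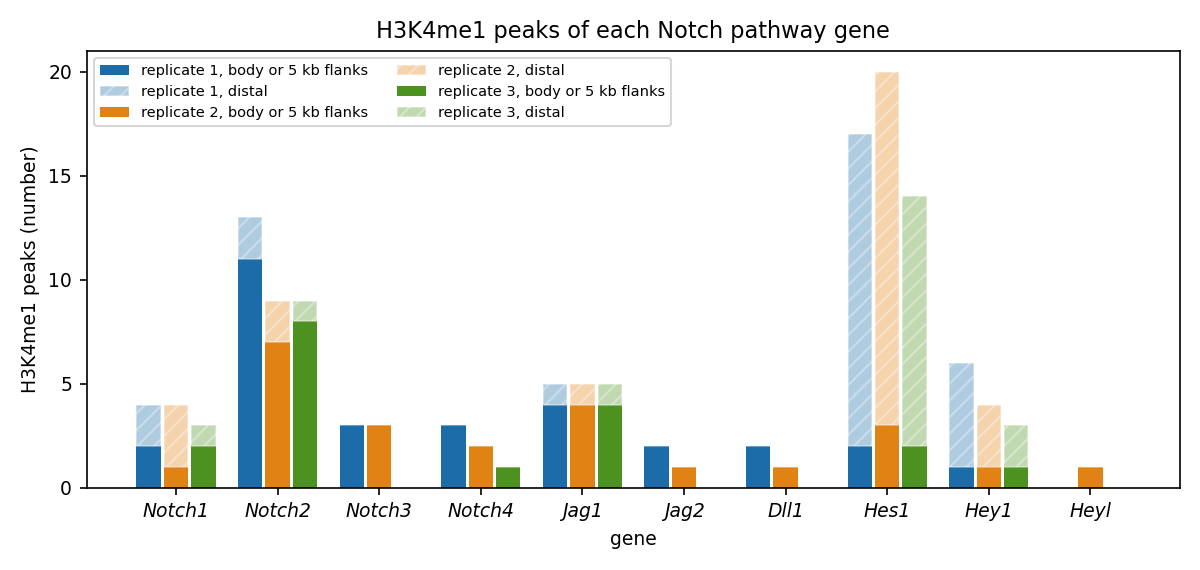
Number of H3K4me1 peaks (vertical axis) of each of the 10 genes (horizontal axis) in each replicate, with solid bars for body peaks and hatched bars for distal peaks. *Hes1* had 17, 20 and 14 peaks in replicates 1, 2 and 3, nearly all of them distal, while *Notch2* had the most body peaks, and *Notch3*, *Jag2* and *Dll1* had no bar in replicate 3.

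A body peak was present at 9, 10 and 6 of the 10 genes in replicates 1, 2 and 3, against 24.9, 22.6 and 19.6% of all protein-coding genes. The genes with a body peak in all 3 replicates were *Notch1*, *Notch2*, *Notch4*, *Jag1*, *Hes1* and *Hey1*, 6 of 10, where the share of all genes was 15.5% and a further 71.2% of all genes had no body peak in any replicate. This share rises with gene length, from 7.1% of genes under 10 kb to 12.2% at 10 to 50 kb, 27.2% at 50 to 150 kb and 51.6% from 150 kb up. *Hes1* and *Hey1*, at 3.41 and 3.90 kb, are in the shortest class, and *Notch1* and *Notch2*, at 58.8 and 137 kb, in the class from 50 to 150 kb.

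*Notch3*, *Jag2* and *Dll1* had body peaks in replicates 1 and 2 and none in replicate 3, a pattern of 5.51% of all genes. Without replicate 3, 9 of the 10 genes had a body peak in the remaining replicates, against 21% of all genes. Replicate 3 stood apart from the others by GC content. Of 11545 merged regions called in replicates 1 and 2, replicate 3 also had 98.6% of those under 45% GC, 86.3% at 45 to 50%, 59.9% at 50 to 55% and 34.9% from 55% GC up. The GC content was 53.5 to 55.7% in the 3 regions of *Notch3*, 59.0% in that of *Jag2* and 52.9% in that of *Dll1*. The part of GC content in these missing peaks was not tested.

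The share of bases under peaks, taken over the body and flanks, gave a level per length for each gene. It was highest on average at *Hes1* (55.01 ± 18.1%) and *Notch2* (47.0 ± 3.46%), followed by *Jag1* (45.5 ± 7.40%), *Notch1* (36.1 ± 3.35%), *Dll1* (27.4 ± 23.8%) and *Hey1* (26.6 ± 8.34%). The lowest shares were at *Notch4* (16.9 ± 7.73%), *Jag2* (15.4 ± 14.1%), *Notch3* (6.12 ± 5.30%) and *Heyl* (5.04 ± 8.73%; SD, n = 3 throughout). Each gene's range overlapped that of the next in this order, so neighbours in the order did not differ beyond their spread. Among all genes, 0.956% had a mean as high as *Notch2*, 1.11% as high as *Jag1* and 2.22% as high as *Notch1*. No such share is given here for *Hes1*. That gene is 3.41 kb long, so most of its counted bases were flank. In replicate 1 its body peaks lay in the flanks, outside the gene itself. In a whole pad, fewer cells with the mark and less of the mark per cell cannot be told apart.

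**Figure D2:**
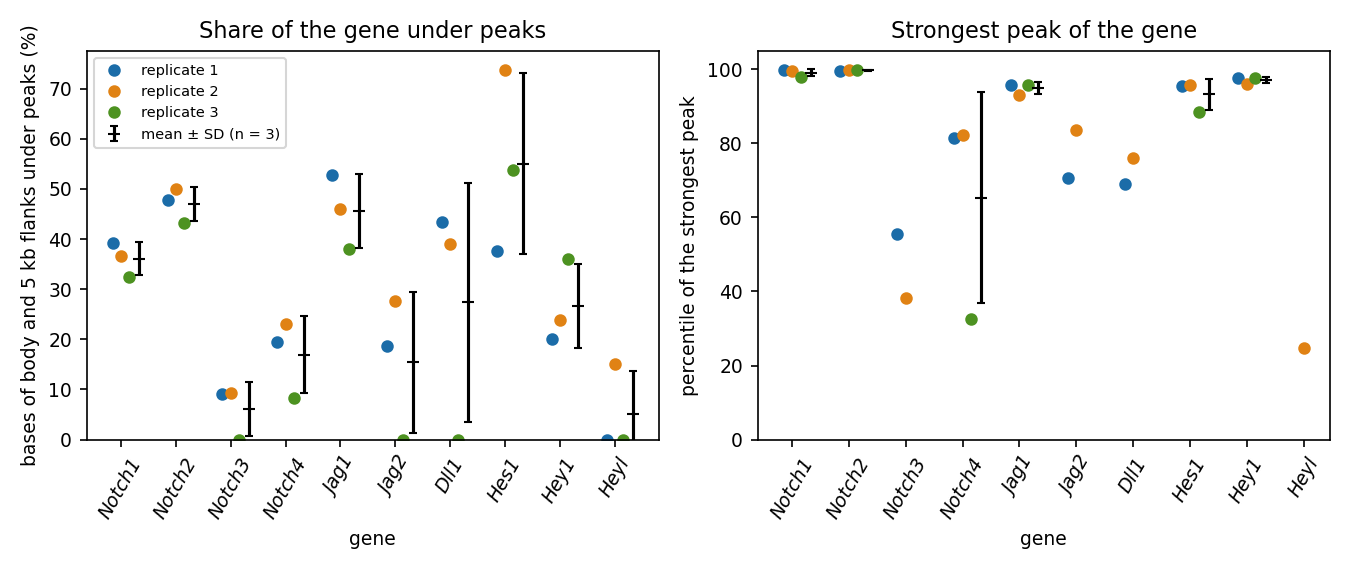
For each of the 10 genes (horizontal axis), the left panel plots the percentage of bases of the body and 5 kb flanks under H3K4me1 peaks and the right panel the percentile of the gene's strongest peak by total signal. Points are replicates and bars are the mean ± SD (n = 3), drawn on the right only for genes with a peak in every replicate. *Notch1*, *Notch2*, *Jag1*, *Hes1* and *Hey1* sit at or above the percentile 88.4 in every replicate, while *Notch4* is at 82.3 in replicate 2 and 32.4 in replicate 3.

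Of the receptors, *Notch2* had the most peaks and the largest covered share. In replicate 1 the strongest single peak was that of *Notch1*, at percentile 99.69 against 99.64. *Notch2* (ENSMUSG00000027878.11, chr3:98013527-98150361, plus strand) encodes a broadly expressed receptor. It had 11, 7 and 8 body peaks in replicates 1, 2 and 3, which covered 47.7, 50.02 and 43.2% of its body and flanks. Its strongest peak stood at percentile 99.6, 99.7 and 99.9 of its list, with lengths of 18345, 28354 and 21690 bp and highest pileups of 210, 239 and 200. The 3 replicates were close to each other in this peak, whose maximum lay in the second intron in each of them, within 897 bp.

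The marked part of *Notch2* ran from just inside the start to the middle of the gene. The first intron of 34.0 kb and the second of 23.1 kb were covered from 9.80 kb onwards by a merged region of 47471 bp, up to 57.3 kb. Within it the peaks were separated by gaps, and it was called as 5, 2 and 3 peaks in replicates 1, 2 and 3. A separate region nearer the start, from 0.435 to 8.21 kb, stood at a mean percentile of 91.2 ± 1.49 (SD, n = 3). Another, at 67.8 to 77.9 kb with its maximum in intron 5, stood at 95.3 ± 0.96. None of the peaks covered the start itself, the nearest edges lying 0.508, 0.435 and 0.869 kb inside. Of 2489 genes of 100 kb or more, 0.362% had a mean covered share as high as that of *Notch2*.

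Weaker peaks of *Notch2* varied more between replicates. The region at 78.6 to 83.0 kb stood at percentile 64.5 in replicate 1 and 50.02 in replicate 3 but at 2.49 in replicate 2. A region at 86.7 to 89.2 kb, with a GC content of 53.5%, was present in replicates 1 and 2 only. Upstream, the region from -54.2 to -49.7 kb was present in all 3 replicates at percentiles 72.7, 56.6 and 26.5. *Notch2* peaks that began beyond 75 kb lay nearer to the start of another protein-coding gene, the closest on that side being *Adam30*.

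*Notch1* (ENSMUSG00000026923.15, chr2:26457903-26516663, minus strand), the receptor known in skin for epidermal differentiation, had 1 dominant block. It ran over 25690 bp, from -6.59 to 19.1 kb, and stood at percentile 99.7, 99.6 and 98.0. In replicates 1 and 2 it was a single peak across the start of the principal transcript, with total signals of 38.6 and 29.7 times the weakest peak of the list. In replicate 3 it was split into a peak upstream and a peak beginning 0.219 kb inside the start, the stronger at 11.3 times the weakest. The highest pileup of the block lay in intron 2, of 16.4 kb, in replicate 1, at 11.0 kb, and upstream of the principal start in replicates 2 and 3, at -3.45 and -3.92 kb, so its place varied by 14918 bp. In replicate 3 the upstream peak reached a pileup of 62 and the intronic peak, with the larger total signal, 55. That upstream side lies within a longer annotated form of the gene, whose start is 12.8 kb further upstream.

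A distal region of *Notch1* at -24.3 to -20.4 kb was called in every replicate, at percentiles 85.7, 84.2 and 62.5. Its highest points lay within 61.5 bp of each other and gave the first window shown. Replicate 3 was the lowest here too, and in the block at the start the log2 ratio of its share of signal to that of replicate 2 was -0.82. The GC content was 52.0% in the distal region and 54.1% in the block. Further upstream, a region at -38.8 to -35.0 kb was in replicates 1 and 2 only, and one at -32.6 to -28.5 kb in replicate 2 only.

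*Notch3* and *Notch4* had few peaks, none of them over the start. *Notch3* (ENSMUSG00000038146.8, chr17:32120820-32166852, minus strand), the receptor of vascular mural cells, had 3, 3 and 0 peaks, of which the strongest was at percentile 55.6 in replicate 1 and 38.1 in replicate 2. One of the 3 regions lay in the first intron, at 0.728 to 3.62 kb. The others, at 46.9 to 49.9 kb and 50.8 to 53.9 kb, lay beyond the 3′ end of the gene, near the start of the antisense gene *Gm17276* at 53.4 kb. Among 10 mural cell markers, a list that includes *Notch3*, 3 (30%) had a peak in all 3 replicates, against 15.5% of all genes, and 4, *Acta2*, *Kcnj8*, *Rgs5* and *Tagln*, had none in any.

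*Notch4* (ENSMUSG00000015468.14, chr17:34564268-34588503, plus strand) is a receptor of endothelial cells. Its peaks numbered 3, 2 and 1, and none came closer to its start than 20.8 kb. They lay over its 3′ end and the neighbouring genes *Gpsm3* and *Pbx2*, and each was nearer to the start of another gene than to its own. The strongest stood at percentile 81.3, 82.3 and 32.4 in a region of 56.6% GC, with a log2 ratio of replicate 3 to replicate 2 of -1.51. Without the 5 kb flanks, the mean number of *Notch4* peaks was 1 per replicate instead of 2. Of 12 endothelial markers, 4 (33.3%) had a peak in all 3 replicates, against 15.5% of all genes, and 6, *Cdh5*, *Tek*, *Tie1*, *Emcn*, *Sox17* and *Egfl7*, had none in any.

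**Figure D3:**
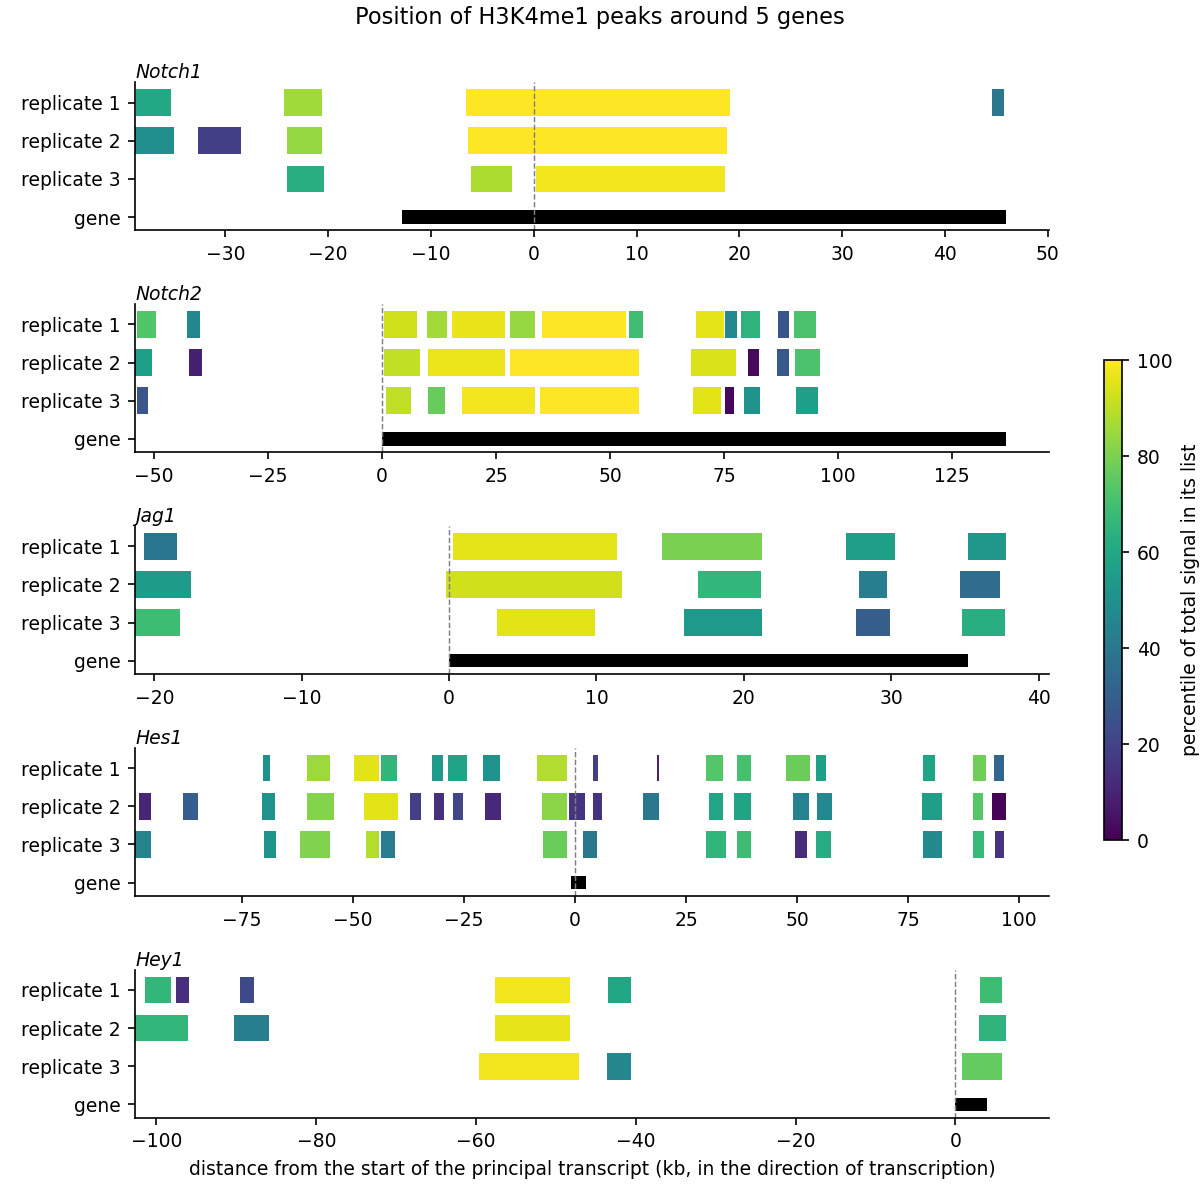
H3K4me1 peaks in each replicate around *Notch1*, *Notch2*, *Jag1*, *Hes1* and *Hey1*, drawn to scale by distance from the start of the principal transcript (horizontal axis, kb, in the direction of transcription, dashed line at 0), with the annotated gene in black. Colour gives the percentile of total signal. *Notch2* and *Jag1* show peaks within the gene in every replicate, and *Hes1* shows them on both sides of a gene of 3.41 kb.

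Of the ligands, *Jag1* was marked in the same places in every replicate. *Jag1* (ENSMUSG00000027276.7, chr2:137081456-137116644, minus strand) encodes the ligand Jagged 1. It had 4 body peaks and 1 distal peak in each of the 3 replicates, and all 5 of its merged regions were present in all 3. Body peaks covered 52.7, 45.9 and 37.9% of its body and flanks. The strongest ran from the start into intron 2, at percentile 95.8, 93.0 and 95.7, with its highest points within 78.5 bp of each other at 7.98 kb, the window shown above.

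The other *Jag1* regions were weaker. The region in intron 5, at 14.5 to 21.2 kb, stood at percentiles 80.0, 65.7 and 53.6. Its neighbour in intron 18 stood at 56.1, 42.3 and 29.6, and the one at the 3′ end at 53.0, 35.1 and 62.5. The distal region at -21.3 to -17.6 kb stood at 39.4, 55.04 and 68.5, so replicate 3 was the highest here and the lowest in introns 5 and 18. Its GC content of 43.1% was the lowest among the regions of the 10 genes. A peak edge reached the start of *Jag1* in replicate 2 and lay 0.27 and 3.28 kb inside it in replicates 1 and 3.

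*Jag2* and *Dll1* were marked in replicates 1 and 2 and had no peak in replicate 3. *Jag2* (ENSMUSG00000002799.6, chr12:112907819-112929776, minus strand), the second Jagged ligand, had its highest pileup in intron 2, in a region from 0.278 to 9.11 kb, at percentiles 70.6 and 83.6. *Dll1* (ENSMUSG00000014773.13, chr17:15367354-15376872, minus strand), a Delta-like ligand, had a region from -6.39 to 3.61 kb that covered its start in both replicates, at percentiles 69.1 and 75.9. The lincRNA *A930024N18Rik* also starts there, 1.87 kb inside the annotated start of *Dll1*. In replicate 3 the nearest peak was 100.9 kb from the start of *Jag2* and 432 kb from that of *Dll1*. The region of *Jag2* had the highest GC content, 59.0%, of all 50 regions of the 10 genes.

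Of the targets, *Hes1* had the most distal peaks. *Hes1* (ENSMUSG00000022528.8, chr16:30064384-30067796, plus strand) encodes a repressor that is the best-known direct target of Notch. It had 15, 17 and 12 distal peaks, a mean of 14.7 ± 2.52 (SD, n = 3), and it was the only protein-coding gene with as many (1 gene, 0.0046%). The next were *Wnt11*, with 16, 14 and 12 (14 ± 2), and *Rasl11b*, with 17, 9 and 10 (12 ± 4.36), and their ranges overlapped that of *Hes1*. The median over all genes was 0 and the 99th percentile 3.

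*Hes1* lies alone among protein-coding genes, 477 kb from the start of *Opa1* on one side and 203 kb from that of *Cpn2* on the other. Within 100 kb, 186 kb of sequence therefore counted as its own. Per 100 kb of such sequence it had 7.89 peaks, where the median of 535 genes with 150 kb or more was 0, the 99th percentile 5.16, and 0.187% of them, *Hes1* alone, had as many distal peaks. *Notch1*, with a mean of 2 distal peaks in only 26 kb of its own, had a similar 7.69 per 100 kb. Noncoding genes start within 100 kb of *Hes1*, *4632428C04Rik* at -55.7 kb, *9030404E10Rik* at -24.9 kb and *Gm1968* at -85.2 kb, measured from the annotated gene start. When starts of long noncoding genes were counted as well, a choice made after seeing the data, the mean number of *Hes1* peaks fell from 17 to 7. With those of all annotated genes, which add pseudogenes and small RNAs, it fell to 2.33, its body peaks alone.

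**Figure D4:**
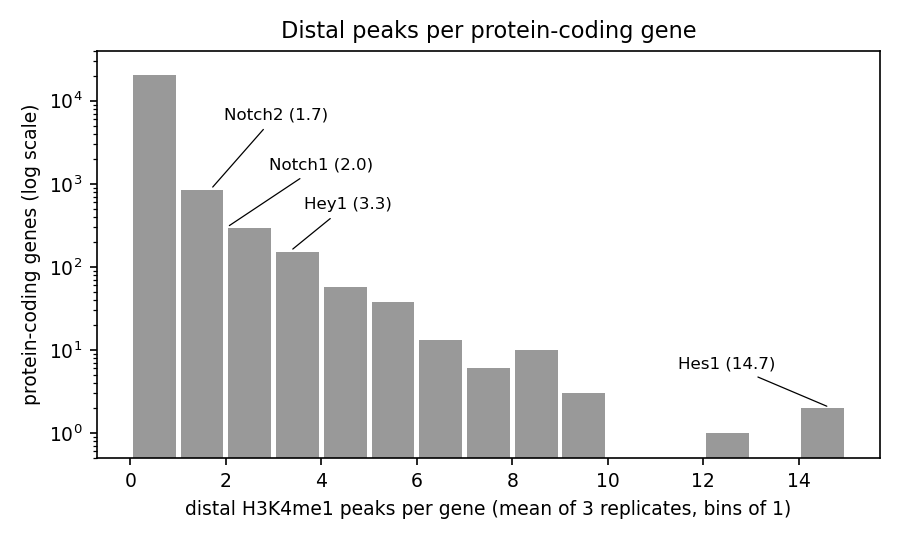
Number of protein-coding genes (vertical axis, log scale) by the mean number of distal H3K4me1 peaks over the 3 replicates (horizontal axis, bins of 1). *Hes1*, at 14.7, is in the last bin with *Wnt11*, and *Hey1* at 3.33, *Notch1* at 2 and *Notch2* at 1.67 lie far to the left of it but above most genes, whose median is 0 and 99th percentile 3.

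The distal peaks of *Hes1* recurred between replicates. Of its 17 distal regions, 10 were present in all 3 replicates, and both body regions were, 12 of 19 in all. The strongest region, at -49.7 to -40.0 kb, stood at percentiles 95.5, 95.6 and 88.4, with highest pileups of 150, 154 and 70. The region at -62.0 to -54.3 kb, which spans the start of *4632428C04Rik*, stood at 85.3, 81.5 and 81.1. The body region from -8.58 to -1.84 kb stood at 88.0, 82.4 and 77.3, below the strongest distal region in every replicate. The region at -62.0 to -54.3 kb was above that body region in replicate 3 only. Both distal regions were higher in their lists than the other body peaks of *Hes1*.

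Downstream of *Hes1*, the regions present in all 3 replicates formed a series at 29.5 to 34.0, 35.7 to 39.7, 47.5 to 52.8, 54.2 to 57.9, 78.1 to 82.7, 89.6 to 92.6 and 94.0 to 97.0 kb. Their mean percentiles were 65.8, 65.9, 44.8, 55.3, 54.0, 72.9 and 16.5. The highest points of the first of them lay within 2.5 bp in the 3 replicates, at percentiles 73.4, 58.7 and 65.3. At the 54.2 to 57.9 kb region, which gave the window with the RBPJ letters, the percentiles were 56.9, 46.9 and 62.2. Upstream, 3 weaker regions between -32.3 and -16.8 kb were in replicates 1 and 2 only.

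The *Hes1* gene itself was weakly marked at its start. A peak covered the start in replicate 2, at percentile 15.5, and the nearest edges in replicates 1 and 3 were 1.91 and 1.75 kb from it. The region at the start and 3′ end, -1.30 to 6.17 kb with 54.2% GC, stood at 18.2, 15.5 and 40.2. The covered share of 37.6, 73.7 and 53.8% thus varied more between replicates than that of *Notch2* or *Notch1*.

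*Hey1* (ENSMUSG00000040289.8, chr3:8663359-8667256, minus strand), a repressor of the HEY family, had a single body peak in each replicate, with its highest point at 5.007 and 5.005 kb in replicates 1 and 2 and at 4.46 kb in replicate 3, beyond the 3′ end of the gene. It stood at percentiles 68.4, 64.5 and 75.9. Distal peaks numbered 5, 3 and 2, a mean of 3.33 ± 1.53 (SD, n = 3), and 0.979% of all genes had as many. Among 1716 genes with 100 kb or more of their own distal sequence, 6.24% had. The neighbours *Stmn2* and *Mrps28* start 158 and 257 kb away, and the noncoding gene *C230057A21Rik* starts 69.1 kb upstream, at -69.1 kb. With the starts of long noncoding genes counted, the mean number of *Hey1* peaks was 1, its body peak alone.

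The strongest peak of *Hey1* was distal, at -59.7 to -47.2 kb. It stood at percentiles 97.7, 96.1 and 97.7, with lengths of 9414, 9333 and 12526 bp and highest pileups of 230, 175 and 75. The highest points lay within 42 bp of each other, in the last window shown above. That window lies in a tandem array of a 41-base unit, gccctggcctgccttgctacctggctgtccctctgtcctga, with 5.29 copies over 217 bp at chr3:8722928-8723144. Its bases matched those 1 unit further on at 85.6%, where the best match of any other window to itself was 32.8 to 42.3%, and 0% of it is masked as repeat in the genome file. Fragments from a tandem array can be placed at more than 1 copy, and their part in the pileup was not tested.

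*Heyl* (ENSMUSG00000032744.4, chr4:123233556-123249875, plus strand), a further HEY family gene, had the fewest peaks. Replicate 2 had 1, in the first intron at 1.78 to 5.76 kb and percentile 24.8, and replicates 1 and 3 had none closer than 50.1 and 50.3 kb.

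Peaks near the gene starts did not always cover them. A peak lay within 1 kb of the annotated gene start in 6, 6 and 3 of the 10 genes, against 9.65, 9.66 and 6.18% of all genes. *Notch2* and *Hes1* had one in all 3 replicates, as did 4.04% of all genes. Among the genes with a peak within 1 kb, the start was under a peak in 1, 3 and 0. These were *Dll1* in replicate 1 and *Dll1*, *Jag1* and *Hes1* in replicate 2. The share of all genes with a covered start is not given here, so this count stands without a background. This count is by the annotated gene start, and the principal start of *Notch1*, described above, was also under a peak in replicates 1 and 2. Of the body peaks, 20, 14 and 12 had their highest point in an intron, 1, 0 and 0 in an exon and 9, 10 and 6 outside the principal transcript. Counted by the highest point in place of the edge, the mean number of genes with a peak within 1 kb of the start was 0.333 rather than 5.

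The peaks of the 10 genes were of ordinary length and ranged over the whole of the lists in strength. Their median percentile was 64.5, 51.3 and 62.5, where 50 is the middle of a list. For body peaks it was 68.8, 65.1 and 76.2, and for distal peaks 59.4, 48.1 and 62.2. A percentile above 90 was reached by 8, 8 and 7 of the 55, 50 and 35 peaks, where 10% of each list lies there by definition. These strong peaks belonged to *Notch1*, *Notch2*, *Jag1* and *Hey1* and, in replicates 1 and 2, *Hes1*. Of these, *Notch2* had 4 in each replicate. The median length of 3232, 3666 and 3563 bp was close to those of the lists, 2981, 3682 and 3352 bp. For body peaks alone it was 3510.5, 4110.5 and 4982.5 bp, above the list in each replicate. The 10 genes held 0.328, 0.386 and 0.250% of the peaks and 0.467, 0.503 and 0.381% of the signal.

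The peaks of the 10 genes merged into 50 regions. All 3 replicates shared 28 of them, a pair of replicates shared 17, and 5 came from a single replicate, where 46.3% of all 19251 regions were shared by all 3. Of 43 regions in both replicates 1 and 2, 65.1% were also in replicate 3, against 77.2% of all such regions. By GC content these were 1 of 1 under 45%, 22 of 26 at 45 to 50%, 4 of 12 at 50 to 55% and 1 of 4 from 55% up. In the regions present in all replicates, the median log2 ratio of the share of signal in replicate 3 to that in replicate 2 went from 0.42 in the single region under 45% GC through 0.03 and -0.66 to -1.51 in the single region from 55% up. Over all regions it went from 0.68 through 0.05 and -0.60 to -1.05. For replicate 1 against replicate 2 the medians over all regions were between -0.06 and -0.29.

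**Figure D5:**
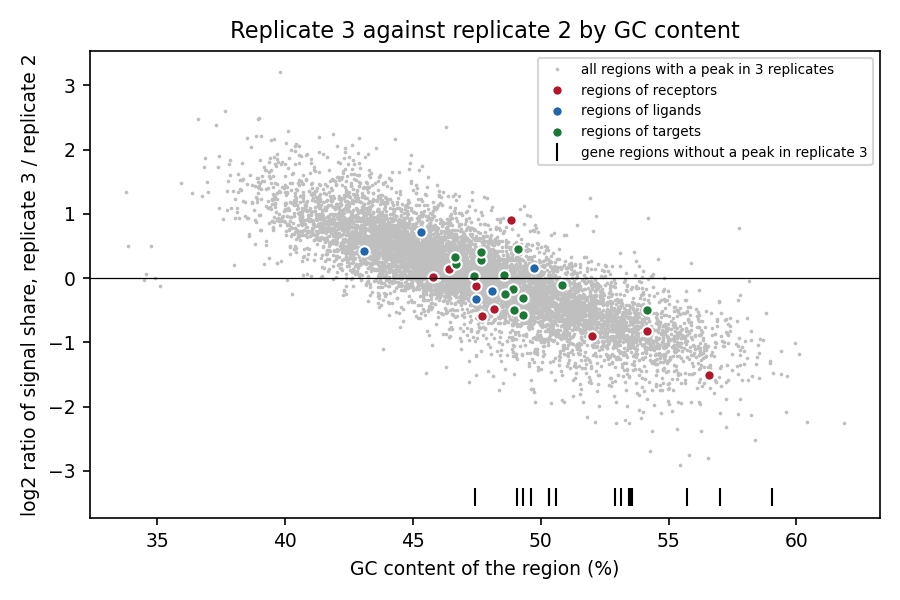
Log2 ratio of the share of signal in replicate 3 to that in replicate 2 (vertical axis) against the GC content of the region in percent (horizontal axis), for 8917 regions with a peak in all replicates (grey) and the 28 regions of the receptors, ligands and targets among them (coloured). Ticks at the bottom mark regions of the 10 genes with a peak in replicates 1 and 2 only. The coloured points lie within the grey band, and the ticks lie between 47.4 and 59.0% GC.

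Each searched motif was in 3 or fewer of the 28 windows. Beside these stand the 8916 windows of the same length over all regions in all replicates. Both strands were searched. The RBPJ letters GTGGGAA were in 1 window, at *Hes1*, and in 4.93% of all windows. The TCF/LEF letters CTTTGAT were in 1, at *Jag1*, and in 2.60%. Of the HES and HEY sequences, CACGTG was in 1, at the *Hes1* region from 78.1 kb, and in 3.61%, and CACGCG was in 0 and in 1.47%. The AP-2 letters GCCNNNGGC were in 2 and in 8.86%, and the E-box CAGATG in 3 and in 19.3%. RefSeq promoters ran from 250 bases before to 50 after a start, and 8 belonged to the genes. CACGCG was in 4 of the 8 and in 9.27% of all 32851 promoters. The 4 were those of *Notch2*, *Jag1* and *Jag2* and 1 of *Dll1*, whose other promoter held none of the letters. The AP-2 letters were in 1 of the 8, at *Jag2*, and in 16.6% of all. The RBPJ, TCF/LEF, CACGTG and E-box letters were in 0 of the 8 and in 6.38, 3.73, 7.15 and 17.2% of all.

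Of 48 further genes of the pathway, 21, 21 and 13 had a body peak in replicates 1, 2 and 3. A body peak was in all 3 at 12 of them (25.0%), and 25 had none in any, beside the 15.5 and 71.2% of all genes given above. Leaving out replicate 3 raised the count of 12 to 20.

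Among further ligands, *Dlk1*, a Delta-like protein without the usual receptor-binding domain, had a peak in all 3 replicates, its strongest at 92.9 ± 5.21 (SD, n = 3), and *Dll4* had one in replicates 1 and 2, while *Dll3*, *Dlk2* and *Dner* had none. In the nuclear complex, 4 of 9 genes had a peak in all 3. The coactivators *Maml3* and *Maml2* stood at 91.8 ± 0.37 and 86.6 ± 2.92. *Rbpj*, the DNA-binding partner of the receptors, had peaks in all 3 replicates at 53.1, 16.7 and 55.3. Of 5 glycosyltransferases, which modify the receptors, *Lfng* alone had a peak in all 3, at 90.9 ± 6.95.

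Of 10 proteases and their subunits, 2, 3 and 1 had a body peak in replicates 1, 2 and 3. *Furin* had one in all 3, at 71.8, 73.7 and 20.8, and *Aph1a*, of the gamma-secretase complex, in replicates 1 and 2, at 80.0 and 62.6. No peak in any replicate was found at 7 of the 10, near the share of all genes (71.2%). The 7 include *Adam10* and *Adam17*, which cut the receptor outside the membrane, and *Ncstn*, *Psenen*, *Aph1b* and *Aph1c* of the gamma-secretase complex. Of 12 genes of ubiquitination and endocytosis, *Dtx3*, *Neurl1a* and *Numb* had one in all 3. Of 7 further targets, *Nrarp*, a feedback inhibitor, did at 82.6, 82.5 and 51.0, and *Hey2* did at 44.1, 56.9 and 9.55. *Hes5* and *Hes6* had peaks in replicates 1 and 2, and *Hes2*, *Hes3* and *Hes7* had none.

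Markers of the cell types that a whole pad could hold were counted in the same way, beside the 24.9, 22.6 and 19.6% of all genes with a body peak in replicates 1, 2 and 3. Of 12 surface ectoderm markers, 8, 8 and 4 had one, with *Krt14*, *Epcam*, *Esrp1* and *Perp* at none. For skeletal muscle the counts were 6, 6 and 5 of 8 and for sensory neurons, near the share of all genes, 2, 4 and 1 of 10. For mural cells they were 4, 5 and 4 of 10, for endothelium 6, 4 and 5 of 12 and for facial mesenchyme 12, 11 and 12 of 12. The part of each cell type in the peaks of the Notch genes was not tested.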

How the data were processed

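Of the 6 samples in the series, the 3 with H3K4me1 antibody were analysed, each from its own peak list. The submitters' processing notes name Bowtie2 2.3, SAMtools 0.1.19, bedtools, SEACR 1.3 and mm10. The authors called peaks per replicate with SEACR in stringent mode, without IgG, and the deposited lists hold the top 1% of signal blocks. For each peak the lists hold its total signal, its highest pileup and where that lay. Both signal columns are whole numbers that are not scaled to depth, and the reads behind each library are not in the lists. Signals were therefore compared by percentile within a list or as shares of a list. With the top share fixed, a longer list does not mean more enrichment. Duplicate handling is not given in the sources used here.

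Genes and principal transcripts came from GENCODE vM21 on GRCm38, the build of mm10, and coordinates are 1-based. Peaks overlapping by at least 1 bp between replicates were merged into regions. Shares of signal were taken of the total signal of the whole list of each replicate. Ratios of these shares between replicates are given for regions with a peak in all replicates. GC content and windows were read from the GRCm38 RefSeq genome. Promoters, 250 bases before to 50 after a start, came from the RefSeq table of GRCm38.p6, which held 8 promoters of 7 of the 10 genes. *Hes1*, *Hey1* and *Heyl* were not among them. Values are mean ± SD over replicates. With 1 group there was no test, and shares of all genes stand beside counts as background. The genes, the further pathway genes and the marker lists were chosen with earlier results of these data known. The genes named were the 10 genes, their neighbours and the members of these lists. *Wnt11* and *Rasl11b* were named after their values were seen. The counting rules were tested on simulated peaks around genes set far apart, so the choice between competing start sites was not tested. Python 3.11.15, numpy 2.4.6, pandas 2.3.3, pysam 0.24.0 and matplotlib 3.10.9 were used. The values of a few list members are not reported here by themselves, although they stay in the counts. The IgG samples were not analysed here.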

Additional observations from a re-analysis of the deposited data

How the results depend on the processing

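Of 63 alternative values for 8 results, 49 moved by less than the spread between replicates or stayed within 1.5 times the main count, and 14 moved further. With the stronger 50% of each list, the pathway genes with a peak in all replicates went from 12 to 6, the regions in all replicates from 28 to 17, the mean number of distal peaks from 22.7 to 13.7, the median length from 3487 to 4866 bp and the median percentile from 59.5 to 50.6. With the strongest 10000 peaks, the pathway genes came to 6, the length to 3748 bp and the percentile to 50.3. By their construction these settings drop the weaker, shorter peaks. Distal peaks came to 13.3 with a reach of 50 kb, to 8.33 when starts of long noncoding genes were counted too, a setting chosen after seeing the data, and to 3 with the starts of all annotated genes. Genes with a start within 1 kb fell from 5 to 0.333 when judged by the place of the highest pileup. Leaving out each replicate gave 6 to 9 genes with a body peak in all remaining replicates, 12 to 20 pathway genes and 29 to 44 regions, the highest of each without replicate 3. The same ranges were 21 to 27 body peaks, 21 to 25.5 distal peaks, 4.5 to 6 genes with a start within 1 kb, 56.9 to 63.5 for the percentile and 3398 to 3615 bp for the length. Of 130 alternative values of the number of peaks of single genes, 15 fell to 0 or did not stay within 1.5 times the main count. No paired analysis was possible because only 1 group was analysed here, the IgG samples with the same numbers being left out. The study states a single nominal depth for all samples, and the lists hold no read numbers from which the depth reached could be taken. A missing peak shows only that no block passed the threshold of that list.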
